A study of Mus musculus with 18 samples.

Results

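The first day of astrocytic differentiation was examined by comparing 3 libraries of mouse cells after 24 h of differentiation without tumor necrosis factor (TNF) with 3 libraries of proliferating neurospheres (NSPs), at 0 h. NSPs are free-floating balls of neural stem cells. These 6 of the 18 libraries of the series were taken by their labels, and all genes of the count table were considered. The other libraries are cells at 24 h and 72 h with TNF, at 72 h without it and at 1 week, with 3 libraries for each of the 6 conditions. The cells of both groups came from the ventricular zone of wild type C57BL/6J embryos at embryonic day 14. NSPs grew in a DMEM F12 neurobasal medium with 1% B27 without vitamin A and epidermal growth factor (EGF) at 20 ng/ml, and the 24 h cells were plated on poly-L-ornithine in DMEM with 10% fetal bovine serum and without EGF or B27. Plating, serum, the loss of EGF and the loss of B27 were therefore changed at the same time, and their effects cannot be told apart. The labels give each library its own replicate number, and the cultures are described as derived from single brains, but the labels do not tie a 24 h culture to a particular NSP culture, so p-values measure the spread between these samples.

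As background, EGF holds embryonic neural stem cells in the cell cycle through its receptor and the ERK kinases, which switch on their own feedback inhibitors. Serum carries bone morphogenetic proteins (BMPs) and lipids that act on RhoA, and attachment to a flat surface builds actin stress fibers that free the coactivators MRTF and YAP. BMP signals acting through SMAD proteins and cytokines acting through gp130 and STAT3 are known to turn neural precursors into astrocytes, while Notch signalling keeps them as precursors.

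Total counts ranged from 17326245 to 19045824 in NSPs and from 12509693 to 17819701 at 24 h, and between 26000 and 27559 genes had a count in a library. Levels below are CPM, the counts of a gene relative to the total counts of its library, after scaling by edgeR's TMM factors. Fold changes are log2 values of 24 h against NSPs with their standard error (SE), n = 3 and 3, from edgeR's quasi-likelihood test over all 18 libraries, and a gene was called when the p-value, adjusted by Benjamini and Hochberg's method, lay below 0.05. NSP replicate 1 stood apart from the other NSPs. Of the genes tested, 1579 were at over 2 times the mean of NSP replicates 2 and 3 in it and 1791 at under 0.5 times that mean. The counts of replicates 2 and 3 differed far less (chi-square per degree of freedom 4.11 against 53.3 and 46.4). For the pairs of 24 h libraries this value was 10.1, 13.7 and 32.5, so NSP replicates 2 and 3 were also more alike than any 24 h pair. Whether NSP replicates 2 and 3 came from separate cultures was not tested. The summed level of 4 Y-linked genes (Ddx3y, Eif2s3y, Kdm5d and Uty) was 15.5, 72.7 and 67.5 CPM in the NSPs and 17.8, 20.9 and 16.3 CPM at 24 h, and the X-inactivation transcript Xist was at 1080, 652 and 660 CPM and at 1720, 1210 and 1690 CPM. Each of the 6 libraries thus held both Xist and Y-linked transcripts although the cultures are described as coming from single brains, and NSP replicates 2 and 3 had more Y-linked RNA than every 24 h library. Whether the embryos or the labels account for this was not tested. For the gene lists, the count with this library alone as the NSPs (written as NSP replicate 1 alone) is therefore also given where it moved by over 1.5 times. In bulk samples fewer cells of a type and less RNA per cell cannot be told apart. The strand setting of the counting is not stated, so levels of genes that overlap another gene are uncertain.

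Of 20067 genes tested, 10576 (52.7%) were called, 5456 (27.2%) higher and 5120 (25.5%) lower at 24 h, with a median log2 fold change of 0.06 over all genes tested. These shares are the background for the gene groups below. Nearly all members of these groups are protein-coding, a class in which 21.9% rose and 33.8% fell. The share of all genes tested whose NSP and 24 h libraries did not overlap is not given. Statements below that libraries did not overlap are therefore descriptions without such a background. A log2 fold change of at least 1 was reached by 3776 of the genes that rose and 1998 of those that fell. The plot of change against level shows the mitosis genes as a group far under 0 and the BMP and contractile genes mostly above it.

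**Figure D1:**
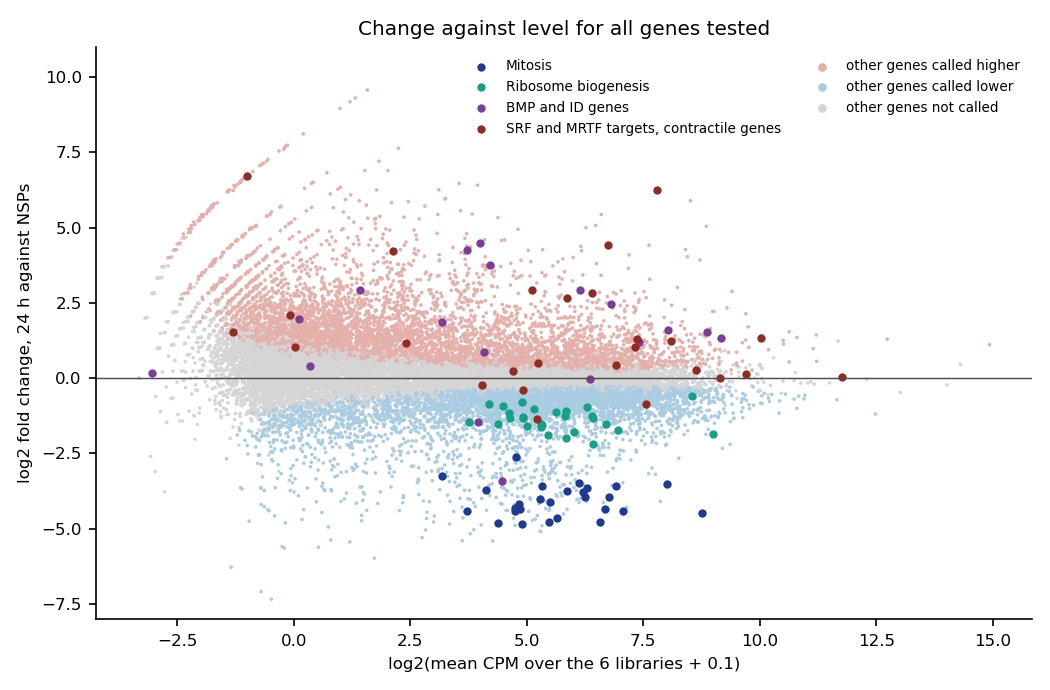
Each point is 1 of the 20067 genes tested, with the log2 of its mean CPM over the 6 libraries plus 0.1 on the x axis and its log2 fold change at 24 h against NSPs on the y axis. Members of 4 gene lists are drawn in full color, and the streaks at the upper left are genes with few or no counts in NSPs, whose fitted values depend on the prior count.

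The gene classes of the annotation moved unequally. Of 13784 protein-coding genes, 3022 (21.9%) rose and 4656 (33.8%) fell, with a median log2 fold change of -0.14. Of 1643 genes of the class TEC (transcripts still to be experimentally checked), 903 (55.0%) rose and 58 (3.53%) fell, and of 213 sense intronic transcripts 100 rose and 4 fell. Antisense transcripts (450 higher and 73 lower of 1278), processed pseudogenes (400 and 110 of 1098) and lincRNAs (273 and 78 of 783) also had more rises than falls. Protein-coding genes took 92.9%, 91.1% and 92.2% of the counts in the NSPs and 87.8%, 89.2% and 85% at 24 h, and lincRNAs 2.35%, 3.16% and 2.77% against 5.57%, 5.10% and 7.03%. Within the lincRNAs the nuclear transcript Malat1 was at 16450, 23410 and 19430 CPM in NSPs and at 42300, 39680 and 46170 CPM at 24 h (log2 fold change 1.11 ± 0.20, adjusted p = 0.000189). Neat1, the scaffold of nuclear paraspeckles, was at 30.9, 64.1 and 58.4 CPM and then at 332, 262 and 387 CPM (2.67 ± 0.43, adjusted p = 5.7e-05). Both nuclear transcripts were higher in every 24 h library than in every NSP library. Of 20 rRNA genes tested 11 rose and 0 fell. The share of counts in this class overlapped between the groups, at 0.0469%, 0.0238% and 0.0205% in NSPs and 0.034%, 0.0196% and 0.0969% at 24 h. The 2 mitochondrial rRNAs took 1.68%, 2.01% and 1.70% of the counts in NSPs and 2.76%, 1.69% and 3.91% at 24 h, with 24 h replicate 3 highest. RNA quality is given for the samples together, as a wide range, and not per library, and its part in these shares was not tested. With NSP replicate 1 alone as the NSPs, 404 TEC genes rose and 62 fell, and 232 antisense transcripts, 159 processed pseudogenes, 173 lincRNAs and 55 sense intronic transcripts rose.

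**Figure D2:**
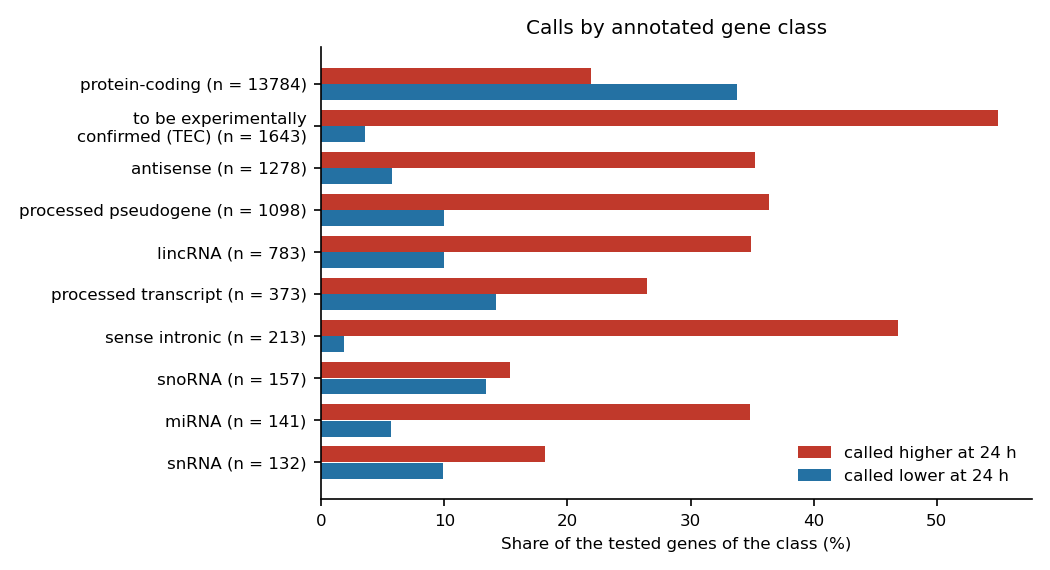
Bars give the share in percent of the tested genes of each annotated class that were called higher (red) or lower (blue) at 24 h, with the number tested beside each class. In the protein-coding class the blue bar is the longer one (33.8% against 21.9%), and in the TEC class the red bar is (55.0% against 3.53%).

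Genes of mitosis fell together. All 27 listed mitosis genes were tested and all 27 fell, with a median log2 fold change of -4.11, and none of their 3 and 3 libraries overlapped. Their summed level was 4950, 3240 and 3410 CPM in the NSPs and 241, 240 and 235 CPM at 24 h. Ccnb1 (chromosome 13, 100778650 to 100786570 on GRCm38), the cyclin that drives entry into mitosis, was at 248, 148 and 157 CPM in the NSPs and at 6.05, 8.05 and 5.95 CPM at 24 h, 27.4-fold lower (log2 fold change -4.77 ± 0.36, adjusted p = 6.53e-09). Mki67, the proliferation marker, was at 493, 457 and 471 CPM and then at 42.7, 37.6 and 42.9 CPM (-3.53 ± 0.42, adjusted p = 1.81e-06). Top2a, which untangles sister chromatids, was at 1180, 611 and 684 CPM and then at 36.7, 40.1 and 35.2 CPM (-4.46 ± 0.35). Ube2c (-4.83) and Cdc20 (-4.64), which act with a ubiquitin ligase, and the kinases Plk1 (-4.81), Bub1 (-4.78) and Aurkb (-4.42) fell by similar amounts. The smallest change was that of Foxm1 (66.6, 37.8 and 36.2 CPM, then 7.71, 6.60 and 8.56 CPM), the transcription factor of the late cell cycle, at -2.62 ± 0.26. All 27 calls held when any 1 library was left out and with NSP replicate 1 alone.

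Promoters of late cell cycle genes are known to pair CCAAT boxes with a cell cycle homology region (CHR), and promoter windows of 250 bases before the start from RefSeq (GRCm38.p6) were read for these motifs. The mitosis list is made of genes of the kind known to carry them, so that a high share is part of how it was chosen. CCAAT or, for the other strand, the letters ATTGG were counted as a CCAAT box. A CHR was counted where the window held TTTGAA, its reverse form, which reads TTCAAA, or the palindrome written as TTTAAA, which is the same on both strands. In the printed windows no CCAAT box shares letters with a CHR. Of the 27 mitosis genes 21 had a window, of which 17 (81.0%) held a CCAAT box, 12 (57.1%) a CHR and 11 (52.4%) both, against 34.8%, 18.3% and 6.54% of the 15130 windows of genes tested and 33.8%, 25.2% and 8.78% of all 32851 windows. The S phase genes matched 25 windows, of which 18 (72.0%) held a CCAAT box and 5 (20.0%) a CHR. A match is a description of the letters and not a measured site. The last 110 bases before the RefSeq start are printed 5′ to 3′ for 5 mitosis genes that hold both motifs, with CCAAT boxes and CHRs in capitals. Most of these windows reach into the gene as GENCODE has it, whose start lies further upstream.
Ccnb1, chr13:100786487-100786596, minus strand: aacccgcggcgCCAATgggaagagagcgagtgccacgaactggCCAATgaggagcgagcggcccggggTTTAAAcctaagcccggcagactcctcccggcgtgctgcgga
Cdc20, chr4:118437344-118437453, minus strand: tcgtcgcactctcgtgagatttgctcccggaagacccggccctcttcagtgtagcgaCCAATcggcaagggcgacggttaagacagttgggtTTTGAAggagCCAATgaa
Ube2c, chr2:164769819-164769928, plus strand: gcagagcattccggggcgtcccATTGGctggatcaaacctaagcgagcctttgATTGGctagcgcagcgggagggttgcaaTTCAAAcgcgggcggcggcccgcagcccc
Kif11, chr19:37376272-37376381, plus strand: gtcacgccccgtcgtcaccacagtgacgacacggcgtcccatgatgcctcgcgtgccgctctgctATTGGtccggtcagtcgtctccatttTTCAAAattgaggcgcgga
Cdk1, chr10:69352913-69353022, minus strand: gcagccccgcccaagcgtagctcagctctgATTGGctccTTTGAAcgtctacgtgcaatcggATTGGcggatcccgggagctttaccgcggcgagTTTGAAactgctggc
In Ccnb1 the CCAAT boxes began 99 and 67 bases and the CHR 42 bases before the start, in Ube2c they began 88 and 57 bases and 29 bases before it, and in Cdk1 both kinds occurred 2 times.

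DNA replication genes were lower too. Of 28 S phase genes tested 27 fell and none rose, with a median of -2.94, and their summed level was 4000, 1670 and 1740 CPM in the NSPs and 428, 469 and 417 CPM at 24 h. Mcm5, a subunit of the replicative helicase, was at 200, 85.7 and 87.7 CPM and then at 8.69, 11.5 and 7.82 CPM (-3.73 ± 0.41, adjusted p = 7.54e-07). Rrm2, which makes deoxynucleotides, changed by -4.00 ± 0.39 and Pcna, the sliding clamp of DNA polymerase, by -2.41 ± 0.26. Orc1, of the origin recognition complex, was not called (14.5, 6.2 and 4.95 CPM, then 4.53, 4.08 and 7.41 CPM, adjusted p = 0.193). NSP replicate 1 held over 2 times the summed level of either other NSP, and without it 27 genes of this list still fell.

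In G1 the D cyclins differed. Ccnd1, the cyclin through which growth factors start the cycle, was at 671, 321 and 332 CPM in the NSPs and at 23.9, 29.6 and 24.0 CPM at 24 h (-4.09 ± 0.43, adjusted p = 3.91e-07), 17.1-fold lower. Ccnd2 was at 693, 274 and 252 CPM and then at 677, 676 and 904 CPM, with overlapping groups and no call (adjusted p = 0.134), and Ccnd3 was at 26.0 to 28.2 CPM and then at 25.6 to 31.2 CPM (adjusted p = 0.635). Among 18 genes of this list 10 fell and 2 rose, with a median of -0.67, and 1 rose without NSP replicate 2 or without any 1 of the 24 h libraries. Among the CDK inhibitors Cdkn1c fell (4.0, 11.3 and 12.9 CPM, then 0.605, 0.559 and 0.407 CPM, -4.14 ± 0.40), Cdkn2c fell (-1.51 ± 0.18), and Cdkn1a (adjusted p = 0.107) and Cdkn1b (adjusted p = 0.322) were not called. Cdkn2b rose (6.35, 6.65 and 7.57 CPM, then 10.2, 9.56 and 9.78 CPM, 0.52 ± 0.20, adjusted p = 0.0383), but its call was lost in each fit without 1 library (adjusted p = 0.0573 to 0.0979) other than the fit without NSP replicate 3, where it was kept (adjusted p = 0.0452). Rb1, the retinoblastoma protein that holds back E2F, rose from 89.7, 112 and 103 CPM to 184, 165 and 175 CPM (0.79 ± 0.14). Of 16 p53 targets 7 fell and 1 rose (2 without any 1 NSP library, without 24 h replicate 2 or with NSP replicate 1 alone), the death receptor Fas, which went from 10.1, 10.5 and 9.39 CPM to 108, 95.7 and 90.9 CPM (3.29 ± 0.18, adjusted p = 2.24e-10).

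Genes under the control of EGF and ERK fell. Of 22 genes tested 15 fell and 1 rose, with a median of -1.55. The feedback inhibitors Spry4 (-2.89 ± 0.31), Spry1 (-2.45 ± 0.39), Spry2 (-1.78 ± 0.18) and Dusp6 (-2.41 ± 0.45) fell, as did the ETS factors Etv4, at 99.6, 107 and 106 CPM and then 13.4, 18.5 and 15.2 CPM (-2.73 ± 0.26, adjusted p = 1.16e-07), and Etv5 (-1.80 ± 0.25). Myc, which drives growth, was at 110, 60.7 and 59.0 CPM and then at 11.7, 12.8 and 15.2 CPM (-2.53 ± 0.22). Egr1 also fell (38.7, 22.1 and 14.0 CPM, then 5.90, 4.64 and 10.3 CPM, adjusted p = 0.0119), but this call was lost without NSP replicate 1 (adjusted p = 0.0654) or 24 h replicate 2 (adjusted p = 0.056). The gene that rose was the EGF family ligand Hbegf, from 19.5, 12.0 and 14.1 CPM to 71.6, 81.3 and 60.5 CPM (2.23 ± 0.29).

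Growth factor and cytokine receptors changed in both directions, with 12 of 20 higher, 5 lower (3 with NSP replicate 1 alone) and a median of 0.53. Il6st (chromosome 13, 112464070 to 112510086), which encodes gp130, the shared chain of the receptors for IL-6, LIF and CNTF, was at 160, 168 and 158 CPM in the NSPs and at 1207, 1186 and 1199 CPM at 24 h, 7.40-fold higher (2.89 ± 0.15, adjusted p = 1.05e-10). Its partner for oncostatin M, Osmr, rose from 1.27, 1.54 and 0.853 CPM to 10.1, 9.11 and 10.3 CPM (3.00 ± 0.37), while the partner for LIF, Lifr, was not called (519, 389 and 401 CPM, then 365, 344 and 368 CPM, adjusted p = 0.151). The receptors Met (3.32 ± 0.72), for hepatocyte growth factor, Fgfr2 (1.71 ± 0.20) and Axl (1.02 ± 0.11) rose. Egfr fell from 1060, 906 and 895 CPM to 452, 396 and 432 CPM (-1.16 ± 0.13), and Pdgfra, of oligodendrocyte precursors, from 5.90, 18.8 and 19.7 CPM to 4.38, 5.82 and 5.13 CPM (-1.53 ± 0.33). The Pdgfra level of NSP replicate 1 lay nearest to the 24 h libraries, and with it alone as the NSPs the call was lost (adjusted p = 0.573). Of 17 AP-1 and immediate early genes 6 rose and 6 fell, with a median of 0.07.

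Of 18 tested genes of the BMP pathway and its ID targets 13 rose and 2 fell, with a median of 1.56, and all 15 calls held when any 1 library was left out. Their summed level was 1000, 1050 and 1010 CPM in the NSPs and 2690, 2750 and 2640 CPM at 24 h. The ID proteins block neurogenic bHLH factors and are direct BMP targets. Id1 was at 15.2, 17.7 and 16.8 CPM and then at 109, 139 and 129 CPM (2.92 ± 0.29, adjusted p = 1.72e-07), and Id4 (2.47 ± 0.27), Id3 (1.6 ± 0.27) and Id2 (1.21 ± 0.23) rose too. The inhibitory Smad6 went from 0.698, 1.37 and 1.93 CPM to 29.0, 30.5 and 32.3 CPM (4.50 ± 0.43, adjusted p = 1.21e-07), and the secreted BMP antagonist Nog from 0.762, 1.26 and 1.88 CPM to 23.1, 25.8 and 26.0 CPM (4.24 ± 0.62). None of these groups overlapped. The receptors Bmpr1a (1.52 ± 0.17) and Bmpr2 (1.34 ± 0.17) and the mediator Smad9 (3.75 ± 0.20) were higher. Of the ligands, Bmp6 rose (0.317, 0.604 and 0.853 CPM, then 4.61, 4.75 and 4.40 CPM), Bmp7 fell from 46.3, 37.9 and 36.7 CPM to 2.95, 4.53 and 3.67 CPM (-3.43 ± 0.22), and Bmp2 (at most 1.55 CPM) was not called. Bmp4 had 1 count in each group. Of 12 TGF-beta targets and ligands tested 4 rose, among them Smad7 (1.98 ± 0.28), and 3 fell, with a median of 0.44.

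Of 18 Notch pathway genes 9 fell and 3 rose, with a median of -0.73. The ligand Dll1 was at 107, 194 and 188 CPM in the NSPs and at 26.4, 27.9 and 28.9 CPM at 24 h (-2.56 ± 0.25, adjusted p = 1.93e-07). Hes5, the target that keeps precursors undifferentiated, was at 24.5, 99.0 and 94.0 CPM and then at 6.27, 8.72 and 8.07 CPM (-3.23 ± 0.50, adjusted p = 3.54e-05), and the fringe enzyme Mfng, which modifies Notch, at 20.7, 28.5 and 28.6 CPM and then 1.29, 2.01 and 1.39 CPM (-4.03 ± 0.34). NSP replicate 1 had the lowest NSP level of all of these, but above every 24 h library. Hes1 (-1.63 ± 0.31) and Jag1 (-1.84 ± 0.16) fell, and Notch2 (1.17 ± 0.17), the target Hey1 (0.98 ± 0.18) and the neuronal ligand Dner (1.24 ± 0.26) rose. Notch1 itself was at 349, 534 and 493 CPM and then at 449, 430 and 611 CPM and was not called (adjusted p = 0.686). In the Wnt list 5 of 18 rose (3 with NSP replicate 1 alone) and 7 fell (median -0.27). The antagonist Wif1 went from 2.79, 3.68 and 4.38 CPM to 54.8, 59.8 and 50.2 CPM (3.92 ± 0.56) and Wnt5b from 1.84, 2.53 and 2.62 CPM to 27.7, 34.6 and 30.2 CPM (3.72 ± 0.23), while the ligand Wnt7b (-2.25 ± 0.29) and the target Axin2 (-0.71 ± 0.13) fell. In the Hedgehog list 2 of 9 rose (1 with NSP replicate 1 alone) and 2 fell, and the targets Ptch1 (adjusted p = 0.355) and Gli1 (adjusted p = 0.479) were not called.

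**Figure D3:**
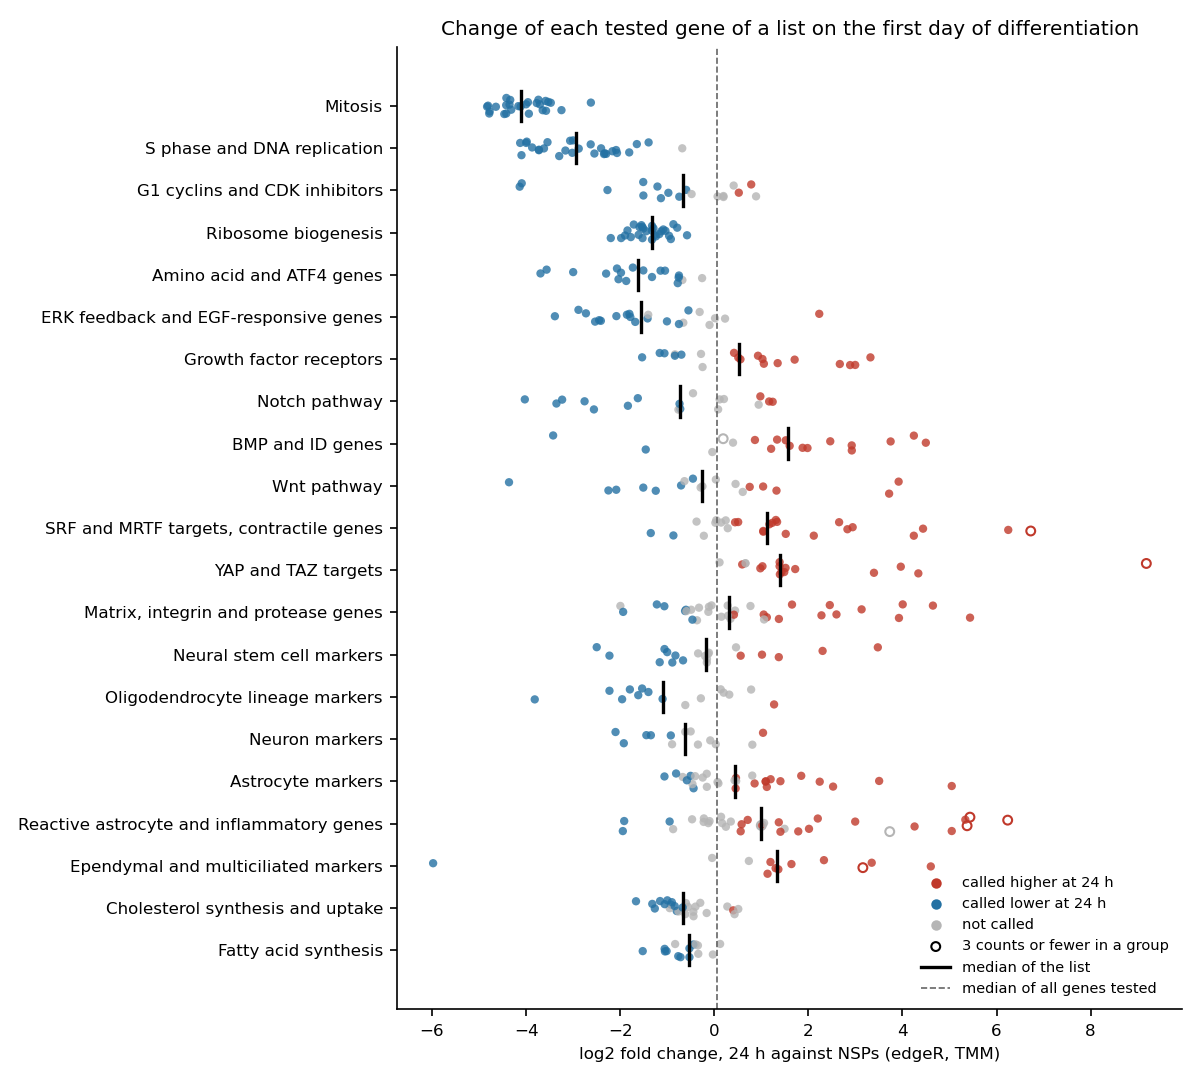
Each point is a tested member of a gene list, placed on the x axis by its log2 fold change at 24 h against NSPs, in red where called higher, blue where called lower and grey where not called. Black bars are list medians and the dashed line is the median of all genes tested (0.06), and open points had 3 counts or fewer in a group, so that their fitted value is no estimate of size. All mitosis and ribosome biogenesis points lie under 0, and the YAP and TAZ targets lie above it.

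Contractile genes rose, while the actins that every cell uses were not called. Of 26 contractile genes and targets of SRF and MRTF 17 rose and 2 fell, with a median of 1.11. Acta2 (chromosome 19, 34241090 to 34255590), which encodes smooth muscle alpha-actin, was at 10.3, 3.62 and 3.53 CPM in the NSPs and at 401, 494 and 424 CPM at 24 h, 76.0-fold higher (6.25 ± 0.65, adjusted p = 3.53e-07). Myl9, the light chain of non-muscle myosin, went from 16.4, 5.99 and 5.97 CPM to 190, 235 and 186 CPM (4.44 ± 0.52), and Tagln from 0.254, 0.549 and 0.455 CPM to 6.58, 11 and 6.84 CPM (4.24 ± 0.70). The crosslinker Actn1 (2.83 ± 0.22), the stress fiber protein Pdlim7 (2.94 ± 0.25), the focal adhesion protein Vcl (1.31 ± 0.13) and the filamin Flna (1.34 ± 0.24) were higher. Actb was at 3922, 3275 and 3102 CPM and then at 3177, 3901 and 3529 CPM and was not called (adjusted p = 0.882), nor was Actg1 (adjusted p = 0.918). Of the 2 genes that fell, Tagln2 was lower in every library (76.5, 42.9 and 40.1 CPM, then 18.1, 21.1 and 23.4 CPM, -1.35 ± 0.21). The other, Tpm4, was not called without NSP replicate 1 (adjusted p = 0.151), when 1 gene fell, or without 24 h replicate 3 (adjusted p = 0.0614). With any 1 library left out 13 to 15 genes of this list rose, and with NSP replicate 1 alone, in which Acta2 and Myl9 were highest among the NSPs, 11 did.

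The CArG box, to which SRF binds, was found in 9 of 29 promoter windows (31.0%) of 23 genes of this list, against 1.18% of the windows of genes tested and 1.47% of all windows. The list was made of known targets, so that a high share is part of how it was chosen. The bases before the start are printed for 2 genes that rose, with the CArG box in capitals, 161 bases before the start in Myl9 and 56 bases before it in Cnn2 (24.4, 10.8 and 12.8 CPM, then 91.9, 112 and 97.3 CPM). For Ccn1, described next, 250 bases are printed with its TEAD motif (CATTCC, the reverse of GGAATG, the motif of the DNA partners of YAP) in capitals, 103 bases before the start.
Myl9, chr2:156775284-156775463, plus strand: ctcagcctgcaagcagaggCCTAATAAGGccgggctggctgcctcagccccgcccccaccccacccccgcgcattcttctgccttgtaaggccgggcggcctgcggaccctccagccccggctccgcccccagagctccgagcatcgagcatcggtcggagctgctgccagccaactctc
Cnn2, chr10:79988490-79988599, plus strand: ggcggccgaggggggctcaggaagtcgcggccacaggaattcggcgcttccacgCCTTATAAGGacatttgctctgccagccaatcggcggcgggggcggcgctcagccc
Ccn1, chr3:145649986-145650235, minus strand: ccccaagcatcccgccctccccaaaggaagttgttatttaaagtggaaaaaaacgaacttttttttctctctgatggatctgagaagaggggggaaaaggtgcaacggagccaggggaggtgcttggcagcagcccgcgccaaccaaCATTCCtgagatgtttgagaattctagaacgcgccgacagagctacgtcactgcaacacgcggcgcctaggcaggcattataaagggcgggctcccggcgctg
The TEAD motif was held by 7 of 14 windows (50.0%) of 13 of the listed YAP and TAZ targets, against 11% of the windows of genes tested and 20.7% of those of the contractile list. This list too is of known targets of factors that act through TEAD, so that its share is part of how it was chosen.

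Of 17 YAP and TAZ targets tested 14 rose and none fell, with a median of 1.39. Ccn1, a secreted matrix protein, was at 6.98, 5.99 and 6.83 CPM in the NSPs and at 97.9, 107 and 104 CPM at 24 h (3.96 ± 0.21, adjusted p = 1.7e-10). Its relative Ccn2 had no count in the NSPs and was at 4.01, 4.70 and 4.56 CPM at 24 h, at least 25.2-fold higher when each NSP library is set to 3 counts. Dock5 (3.39 ± 0.30), the kinase Lats2 (1.72 ± 0.23) and Ajuba (1.52 ± 0.19), both of which restrain or relay Hippo signalling, rose, and Amotl2 was not called (48.9, 129 and 119 CPM, then 147, 164 and 158 CPM, adjusted p = 0.0745). Among 34 tested genes of the matrix, its receptors and its proteases 13 rose and 6 fell, with a median of 0.32. Fibronectin, Fn1, went from 70.6, 40.3 and 45.1 CPM to 751, 627 and 990 CPM (3.92 ± 0.38, adjusted p = 1.46e-07). Thrombospondin 1, Thbs1, which astrocytes secrete, went from 5.27, 4.17 and 3.70 CPM to 181, 195 and 192 CPM (5.44 ± 0.54), and the laminin receptor subunit Itga3 from 0.508, 1.15 and 1.2 CPM to 24.3, 24.9 and 23.8 CPM (4.65 ± 0.22). The protease inhibitor Timp2 rose (2.28 ± 0.16), and the membrane protease Mmp15 (-1.94 ± 0.19) and the proteoglycan Vcan (-1.22 ± 0.20) fell. The fibrillar collagen genes Col1a1 and Col1a2 stayed at 0.570 CPM or less in all 6 libraries.

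**Figure D4:**
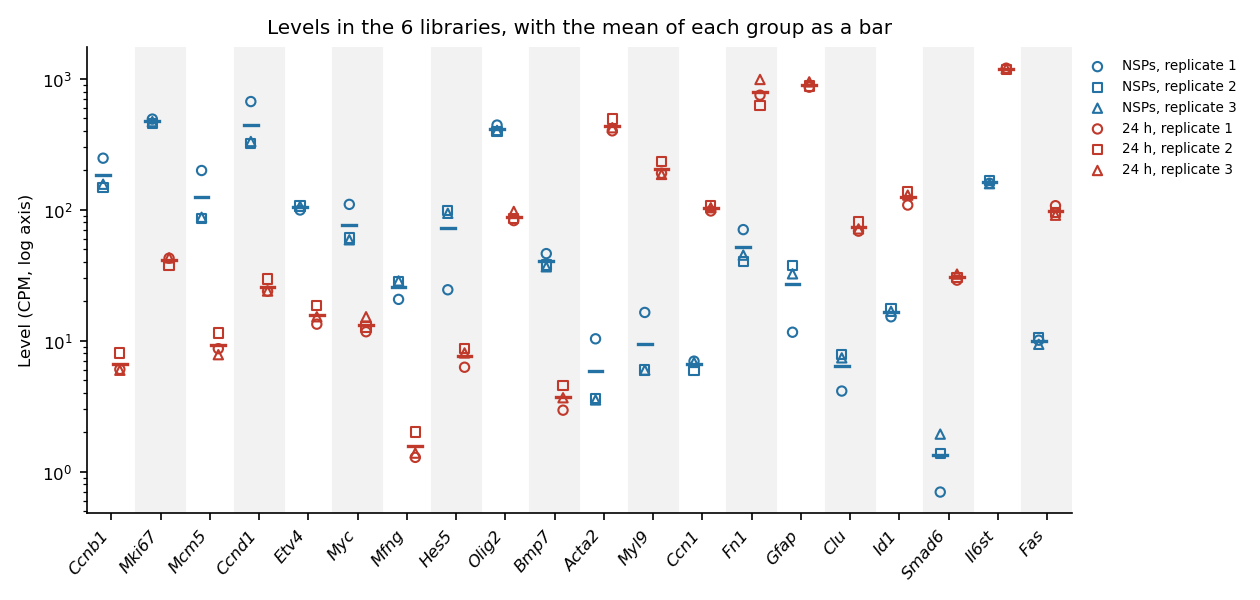
Points give the level in CPM, on a log axis, of 20 genes described in the text in each of the 3 NSP libraries (blue) and the 3 libraries at 24 h (red), with a marker for each replicate number, and bars give the mean of a group. The 20 genes were picked after their values were seen, and for all of them the blue and red points do not overlap. The circle of NSP replicate 1 lies apart from the other NSPs for Ccnb1, Mcm5, Ccnd1, Myc, Hes5, Acta2, Myl9, Fn1, Gfap and Clu, among others.

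Cell identity genes were checked next. Of 20 tested neural stem cell markers 8 fell and 5 rose (3 with NSP replicate 1 alone), with a median of -0.18. Sox3 was at 23.1, 39.4 and 39.3 CPM and then at 5.14, 5.87 and 7.01 CPM (-2.50 ± 0.27), and the progenitor factor Olig2 at 444, 397 and 404 CPM and then at 82.7, 86.0 and 97.2 CPM (-2.23 ± 0.19, adjusted p = 4.02e-08). Sox2 fell from 248, 381 and 364 CPM to 220, 214 and 193 CPM (-0.66 ± 0.17), and with NSP replicate 1 alone that call was lost (adjusted p = 0.267). Nestin, Nes, fell from 1798, 1055 and 1127 CPM to 753, 796 and 695 CPM (-0.83 ± 0.28, adjusted p = 0.0202), a call lost without NSP replicate 1 (adjusted p = 0.128), 24 h replicate 1 (0.0511) or 24 h replicate 3 (0.0621), and that of Fabp7 (-1.0 ± 0.32) was lost without NSP replicate 1 (adjusted p = 0.0516). Hopx, found in outer radial glia and quiescent stem cells, rose from 2.67, 2.25 and 2.56 CPM to 25.5, 32.0 and 25.8 CPM (3.48 ± 0.24, adjusted p = 2.89e-09), and Pax6 (1.01 ± 0.16) and the RNA-binding Msi1 (2.30 ± 0.28) rose too. Slc1a3, Ptprz1, Tnc and Sox1, also stem cell markers, were not called.

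Of 29 tested astrocyte markers 13 rose and 5 fell, with a median of 0.45, and 8 of the 13 rises held when any 1 library was left out. Gfap (chromosome 11, 102887336 to 102900912), the intermediate filament of astrocytes, was at 11.6, 37.3 and 32.4 CPM in the NSPs and at 864, 883 and 949 CPM at 24 h, 33.1-fold higher (5.05 ± 0.64, adjusted p = 3.89e-06). The secreted chaperone Clu went from 4.13, 7.85 and 7.40 CPM to 68.7, 80.8 and 71.5 CPM (3.50 ± 0.21), the zinc transporter Slc39a12 from 41.8, 54.9 and 53.1 CPM to 308, 305 and 249 CPM (2.53 ± 0.19), and the water channel Aqp4 from 55.6, 208 and 213 CPM to 451, 428 and 385 CPM (1.41 ± 0.39). The potassium channel Kcnj10 (149, 112 and 99.0 CPM, then 444, 302 and 552 CPM) and the sodium pump subunit Atp1b2 (60.0, 67.2 and 41.8 CPM, then 196, 162 and 442 CPM) rose, with 24 h replicate 3 highest for both, and Atp1b2 was not called with NSP replicate 1 alone (adjusted p = 0.0616). The glutamate transporters Slc1a2 (435, 422 and 422 CPM, then 429, 310 and 405 CPM, adjusted p = 0.566) and Slc1a3 (adjusted p = 0.441) were not called, and Fgfr3 (-1.06 ± 0.17), S100b (-0.81 ± 0.18) and glutamine synthetase, Glul (-0.44 ± 0.14), fell. The rise of Aldh1l1 (8.44, 15.1 and 15.3 CPM, then 21.9, 26.4 and 22.0 CPM) was lost without NSP replicate 1 (adjusted p = 0.0923) or 24 h replicate 2 (adjusted p = 0.0644). The transcription factor Nfia rose (241, 246 and 202 CPM, then 519, 411 and 652 CPM, 1.2 ± 0.31, adjusted p = 0.0862 with NSP replicate 1 alone) and Sox9 was not called (adjusted p = 0.0607). Apoe differed among the NSPs (313, 1268 and 1117 CPM), with the 24 h libraries at 551 to 572 CPM between them (adjusted p = 0.213). Without NSP replicate 1, 9 astrocyte markers rose and 7 fell.

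Of 15 tested genes of the oligodendrocyte lineage 8 fell and 1 rose, with a median of -1.10. Olig1 was at 535, 787 and 741 CPM in the NSPs and at 232, 256 and 295 CPM at 24 h (-1.40 ± 0.36), and the proteoglycan Cspg4 of oligodendrocyte precursors at 67.8, 145 and 140 CPM and then at 36.5, 35.4 and 43.0 CPM (-1.62 ± 0.39). Gpr17, of committed precursors, was at 0.127, 5.71 and 5.92 CPM and then at 0.151, 0.391 and 0.244 CPM, so that NSP replicate 1 lay with the 24 h libraries. With that library alone as the NSPs 3 genes rose and 4 fell, and 3 of the 8 falls were kept, while without it 10 genes fell. Of 13 neuron markers tested 5 fell, among them Sox11 (338, 267 and 257 CPM, then 76.7, 74.5 and 75.9 CPM, -1.92 ± 0.17), and 1 rose, Syt1, from at most 0.934 CPM to at most 2.28 CPM. Its call was lost without NSP replicate 3 or 24 h replicate 3, and 0 neuron markers rose then or with NSP replicate 1 alone, while without 24 h replicate 2 the number was 2. Markers of ependymal, multiciliated cells rose in 9 of 12 cases (median 1.33), among them the master factor Foxj1 (18.9, 32.8 and 31.9 CPM, then 79.4, 93.4 and 87.7 CPM, 1.64 ± 0.21) and the ciliary dynein Dnah9 (1.21, 1.37 and 1.42 CPM, then 33.2, 30.9 and 34.0 CPM, 4.6 ± 0.36). Hydin, of the central pair of motile cilia, fell from 8.31, 5.33 and 5.41 CPM to 0.227, 0 and 0.0815 CPM, a ratio of 68.0 with a 95% counting interval from 26.3 to 251.

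Markers of other cell types were read as well, and C1qa of microglia and Cdh5 of endothelium, among others, had no count. Of 15 microglia and macrophage markers 4 passed the filter and 1 of them, P2ry12, rose (0 with NSP replicate 1 alone), their summed level was 4.55 to 6.73 CPM in NSPs and 5.98 to 6.68 CPM at 24 h, and C1qa, C1qb, C1qc, Itgam and Tyrobp had no count in any of the 6 libraries. Of 12 endothelial markers 7 passed the filter, 1 rose and 1 fell (0 with NSP replicate 1 alone), Cdh5 and Cldn5 had no count, and the summed level went from 5.22 to 7.55 CPM to 23.1 to 26.5 CPM. Most of that sum was Slco1a4, an organic anion transporter that astrocytes also express, at 0, 0.275 and 0.569 CPM and then 19.6, 20.2 and 16.2 CPM (5.97 ± 0.70, adjusted p = 1.59e-06). Of 13 mural markers 6 passed the filter and 3 rose, Acta2, Tagln and Rgs5 (ratio 23.0, 95% counting interval 7.48 to 115), and 1 fell (2 without NSP replicate 1 and 0 with it alone), while Pdgfrb, Kcnj8, Abcc9, Vtn and Anpep stayed at 0.227 CPM or less in every library. Of 17 meningeal and fibroblast markers 7 passed the filter and 3 rose (Fmod, Ogn and Tbx18) and 2 fell (0 with NSP replicate 1 alone), with Lum at 0, Twist1 at 0.127 CPM or less and Dcn at 0.244 CPM or less. The summed mural level was 172, 300 and 296 CPM and then 539, 619 and 599 CPM, and the summed meningeal level 41.3, 60.7 and 60.4 CPM and then 62.6, 66.3 and 65.7 CPM. Some markers of these cell types had at most 3 counts per library in 1 group and more in the other. Beside Rgs5 and Fmod, Higd1b (5 NSP counts and 28 at 24 h), Emcn (3 and 13) and Mrc1 (0 and 17) were higher at 24 h. So were Dpt (3 and 10), Dcn (1 and 8) and Col1a2 (0 and 8), while Slc6a13 (12 and 0) and Tmem119 (6 and 3) were lower. Apart from Rgs5 and Fmod none was called.

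Genes of reactive astrocytes and inflammation rose in 16 of 33 cases and fell in 3, with a median of 1.00 (0.71 with genes at 0 in a group set to their bound). The membrane protein Tm4sf1 went from 1.52, 0.769 and 0.740 CPM to 38.2, 46.5 and 36.7 CPM (5.34 ± 0.33, adjusted p = 8.94e-10), complement C4b from 4.19, 8.73 and 8.25 CPM to 34.9, 30.5 and 32.5 CPM (2.20 ± 0.44), and the STAT3 target Socs3 from 2.35, 3.30 and 2.79 CPM to 7.48, 7.55 and 7.42 CPM (1.41 ± 0.22). The chemokine Ccl2 (1.33, 0.439 and 0.967 CPM, then 0.151, 0.112 and 0.489 CPM) and the adhesion molecule Vcam1 (69.4, 127 and 129 CPM, then 26.3, 30.6 and 27.5 CPM, -1.94 ± 0.22) fell. Il6, Cxcl1 and Icam1 had no count in the 6 libraries, and Serpina3n was at 1.02 to 1.32 CPM and then at 1.21 to 1.73 CPM (adjusted p = 0.664). With NSP replicate 1 alone 9 genes of this list rose. Of 17 interferon and antigen presentation genes 5 rose and 2 fell, with a median of 0.08, but 2 rose without NSP replicate 2 or 24 h replicate 3, 3 rose without NSP replicate 1, NSP replicate 3 or 24 h replicate 1, and 1 fell without 24 h replicate 2. With NSP replicate 1 alone 2 rose and 1 fell.

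Growth and biosynthesis genes fell. All 28 ribosome biogenesis genes were tested and all 28 fell, with a median of -1.33. Nop56, a core protein of the snoRNPs that modify ribosomal RNA, was at 222, 97.4 and 104 CPM in the NSPs and at 28.9, 33.8 and 29.3 CPM at 24 h (-2.20 ± 0.25, adjusted p = 1.07e-06), and the nucleolar Npm1 at 1046, 674 and 695 CPM and then at 226, 248 and 198 CPM (-1.85 ± 0.19). Nucleolin, Ncl, had the smallest change (-0.58 ± 0.22) and was not called without NSP replicate 1 (adjusted p = 0.555), 24 h replicate 1 (0.0762) or 24 h replicate 2 (0.129). Amino acid synthesis and transport genes under ATF4 fell in 16 of 18 cases and rose in none (median -1.62). Among them were the mitochondrial folate enzyme Mthfd2 (52.6, 58.0 and 58.6 CPM, then 3.78, 4.75 and 5.79 CPM, -3.56 ± 0.34, adjusted p = 1.09e-07), asparagine synthetase, Asns (-1.87 ± 0.28), and Atf4 itself (262, 230 and 227 CPM, then 96.6, 105 and 86.0 CPM, -1.32 ± 0.15). Slc7a11, the cystine transporter, was at 68.1, 327 and 326 CPM and then at 69.9, 51.3 and 50.8 CPM. It overlapped between the groups through NSP replicate 1, and with that library alone 9 of the 16 falls were kept.

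Among lipid synthesis genes, the count of cholesterol genes called depended on single libraries. Of 25 cholesterol synthesis and uptake genes 11 fell and 1 rose, with a median of -0.67, but without NSP replicate 1 the number that fell was 3, without 24 h replicate 1 it was 6 and without 24 h replicate 3 it was 4, when 0 rose. With NSP replicate 1 alone 19 of these genes fell. Tm7sf2, a sterol reductase, was steady among the NSPs (54.8, 55.4 and 54.6 CPM) and fell to 15.4, 20.4 and 16.1 CPM (-1.66 ± 0.24, adjusted p = 1.55e-05). Of 15 fatty acid synthesis genes 9 fell and none rose (1 with NSP replicate 1 alone), with a median of -0.53, among them Elovl6 (-1.52 ± 0.21) and the desaturase Scd2 (4265, 4013 and 3781 CPM, then 2416, 2417 and 2496 CPM, -0.72 ± 0.11). Of 8 LXR targets and cholesterol efflux genes tested 1 rose and none fell (2 rose without NSP replicate 3, and 2 fell without NSP replicate 1), with a median of -0.10. The gene that rose was the cholesterol exporter Abca1, from 56.4, 308 and 300 CPM to 584, 520 and 566 CPM (1.33 ± 0.41, adjusted p = 0.0105).

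Of 22 glycolytic genes 5 rose and 7 fell (median -0.18), shares near those of all protein-coding genes. Without NSP replicate 2 the number that fell was 4, and with NSP replicate 1 alone it was 2. The pyruvate kinase Pkm fell from 1258, 1108 and 1169 CPM to 566, 646 and 537 CPM (-1.02 ± 0.15), and the platelet form of phosphofructokinase, Pfkp, rose from 6.98, 8.07 and 6.71 CPM to 80.0, 81.7 and 71.7 CPM (3.42 ± 0.17, adjusted p = 6.14e-11). The lactate transporter Slc16a1 (1.80 ± 0.18) and Pfkfb3, which activates glycolysis (1.75 ± 0.20), rose as well. In the hypoxia list 5 of 18 fell (3 with NSP replicate 1 alone), among them Vegfa (39.7, 95.0 and 90.6 CPM, then 18.7, 12.8 and 14.9 CPM, -2.28 ± 0.64, not called with NSP replicate 1 alone) and Adm (-3.08 ± 0.39), and 2 rose (median -0.38). The metallothioneins Mt1 (59.0, 163 and 123 CPM, then 430, 696 and 547 CPM, 2.28 ± 0.30) and Mt2 (2.55 ± 0.30) rose and the glucocorticoid target Fkbp5 fell (-2.04 ± 0.27), in a list of 16 glucocorticoid targets with 4 higher and 6 lower. Of 16 NRF2 targets 7 rose and 4 fell, with a median of 0.25. Nqo1 went from 9.27, 6.32 and 7.05 CPM to 14.4, 16.2 and 13.6 CPM (0.97 ± 0.23), Hmox1 rose by less (0.90 ± 0.26), and the thioredoxin reductase Txnrd1 (-1.22 ± 0.15) fell. With NSP replicate 1 alone 1 gene of the list rose and 0 of these 7 rises were kept, and without NSP replicate 2 or NSP replicate 3 the number of genes of the list that rose was 3. Of 19 clock genes 7 rose and 1 fell (median 0.20), of 23 lysosomal genes 5 and 4 (0.14, with 2 lower without NSP replicate 2, NSP replicate 3 or 24 h replicate 3, and 9 higher and 1 lower with NSP replicate 1 alone), and of 9 mitochondrially encoded genes 1 and 0 (-0.08). In a fit of the 6 libraries alone 3 mitochondrially encoded genes rose and 3 fell, and with no filter 4 rose and 3 fell. The mitochondrial rise, mt-Nd4, was lost without NSP replicate 3 (adjusted p = 0.0547) or 24 h replicate 3 (adjusted p = 0.0514), and 0 genes of that list rose then. Without NSP replicate 3, 1 gene of that list fell, and with NSP replicate 1 alone 0 rose and 1 fell.

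Among all genes without overlap between the groups and with at least 5 CPM in the higher one, predicted genes left out, the 15 largest fitted rises included Myoc, a secreted glycoprotein also made by astrocytes of the optic nerve, with no count in the NSPs and 5.97, 6.32 and 5.05 CPM at 24 h (at least 33.0-fold higher). Pappa, a protease of IGF-binding proteins (2 NSP counts, ratio 174, 95% counting interval 47.7 to 1440), Ass1 of arginine synthesis (ratio 143, 39.0 to 1180) and Fmod (3 NSP counts, ratio 133, 45.3 to 650) were among them. The small heat shock protein Hspb8 was at 10.8, 13.5 and 12.0 CPM and then at 693, 827 and 638 CPM, 59.5-fold higher (5.89 ± 0.29, adjusted p = 6.14e-11). Rpe65 (6.41 ± 0.31), Plscr2 (6.47 ± 0.43), Pcp4 (6.26 ± 0.50), Adamts16 (5.95 ± 0.43), Mme (5.86 ± 0.75), Slc25a48 (5.83 ± 0.71) and Plxdc1 (5.75 ± 0.63) rose as well. The largest falls beside Hydin were Tle6 (38.3, 34.7 and 39.6 CPM, then 1.21, 0.783 and 0.652 CPM, -5.41 ± 0.36), the branched-chain aminotransferase Bcat1 (-5.40 ± 0.73), Bmp3 (2.79, 15.9 and 20.2 CPM, then 0.227, 0.280 and 0.489 CPM, -5.29 ± 0.75) and Sapcd2 (-5.17 ± 0.40), and the other 10 included Kif2c (-5.10 ± 0.36), Pbk (-4.90 ± 0.33) and Neil3 (-5.04 ± 0.37). Gains and losses in absolute CPM were ranked among genes called without overlap. The largest gain after Malat1 was that of Gm26917, a lincRNA (3947, 4134 and 3775 CPM, then 6038, 4832 and 18230 CPM). It rested on 24 h replicate 3, without which its change was 0.45 (adjusted p = 0.386), and its call was also lost without any 1 NSP library (adjusted p = 0.0526 to 0.0641). The matrix proteoglycan Ncan (1039, 1399 and 1400 CPM, then 3267, 3159 and 3966 CPM, 1.44 ± 0.32), the cytolinker Dst (1.35 ± 0.13) and the cadherin Fat1 (1.55 ± 0.19) followed. The largest losses were those of the translation factors Eef1a1 (8245, 7579 and 8054 CPM, then 3455, 3854 and 3158 CPM, -1.19 ± 0.15) and Eef2 (-0.69 ± 0.17, not called with NSP replicate 1 alone), of Scd2, Fabp7 and the growth factor Ptn (-1.16 ± 0.21).

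The levels at 24 h stood in different places within the series, which is given as means of 3 libraries and was not tested here. Mki67 was at 474 CPM in NSPs, 41.1 CPM at 24 h, 1.39 CPM at 72 h and 2.65 CPM at 1 week, and Ccnb1 at 184, 6.68, 0.652 and 0.657 CPM in the same order, so that most of the loss in CPM lay within the first day, while as a ratio Mki67 fell further between 24 h and 72 h than before. Gfap was at 27.1, 899, 2432 and 63.4 CPM, with its highest mean at 72 h. Nog (1.30, 24.9, 2.48 and 0.930 CPM), Wif1 (3.62, 54.9, 1.02 and 0.407 CPM) and Id1 (16.6, 126, 52.0 and 29.8 CPM) had their highest mean of these 4 at 24 h. Slco1a4, at 18.7 CPM at 24 h, was at 273 CPM at 72 h and 698 CPM at 1 week, and Clu was at 73.7, 803 and 511 CPM. At 24 h with TNF, 1 of the 3 libraries had far lower levels of Nog, Wif1, Id1 and Acta2 than the other 2, as the plot over all conditions shows.

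**Figure D5:**
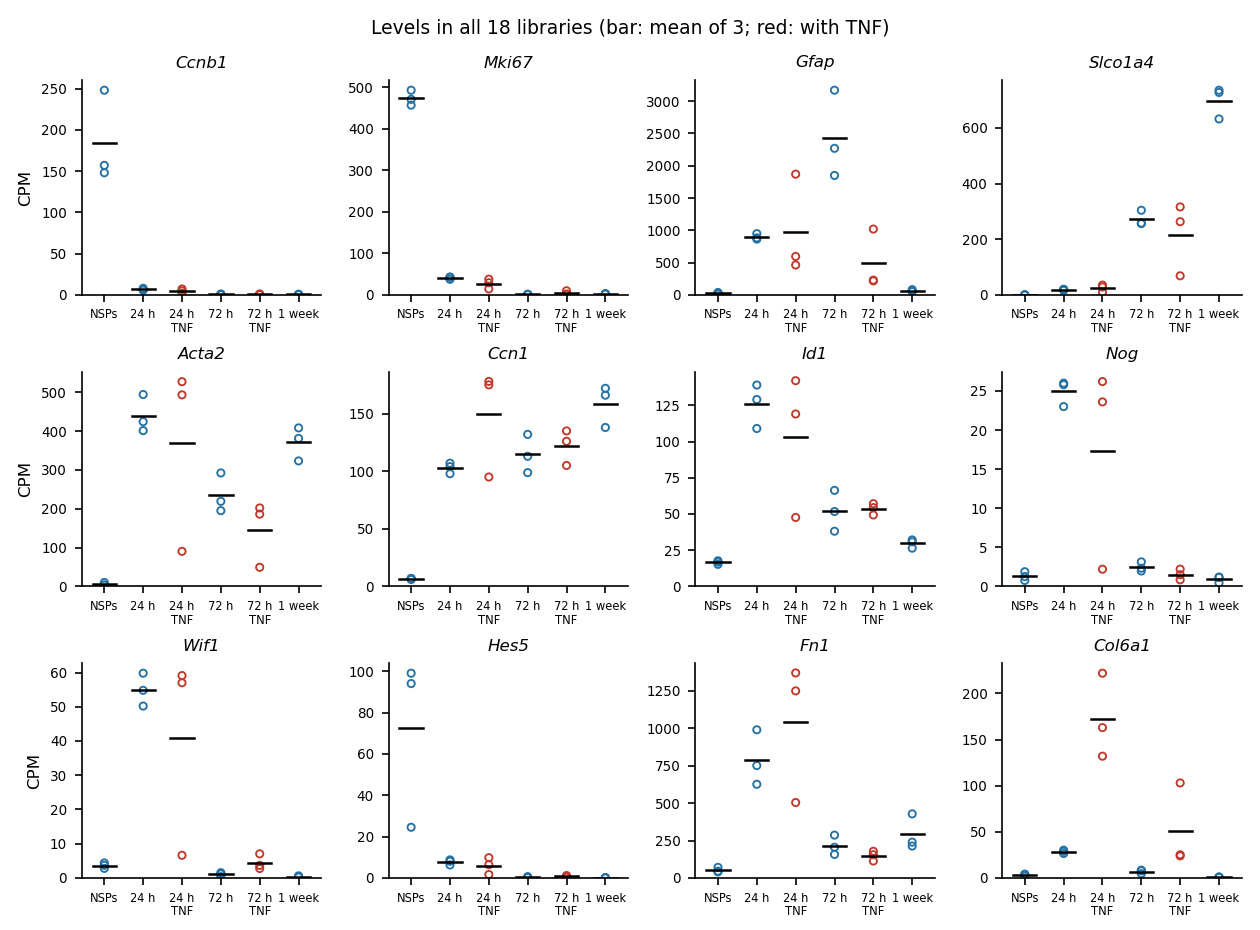
Each panel gives the level of 1 gene in CPM on a linear axis from 0 in all 18 libraries, by condition, with the mean of 3 libraries as a bar and libraries with TNF in red. Ccnb1, Mki67 and Hes5 are highest in NSPs, Nog and Wif1 are highest among the untreated conditions at 24 h, Gfap at 72 h and Slco1a4 at 1 week.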

How the data were processed

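Total RNA depleted of ribosomal RNA (Ribo-Zero Gold, TruSeq stranded libraries) was sequenced from 6 conditions with 3 libraries each. The authors used Trim Galore for trimming, STAR for alignment, Samtools and then featureCounts, and the deposited values are raw counts for 54838 genes without normalization. The submitters' processing notes name the build mm10, and tool versions and the strand setting are not given in the sources used here. All 18 columns were used, and the number of columns of other samples was 0. GENCODE M21 held 54809 of the gene identifiers and gave names, positions and classes.

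Groups were taken from the labels. A column of untreated cells at 72 h carries a replicate number that no label gives and was placed by its group alone. It enters the shared spread and the 72 h means. From the counts, edgeR 4.0.16 (limma 3.58.1, R 4.3.3) computed TMM factors, kept 20067 genes with its filter by condition and fitted its quasi-likelihood test over the 18 libraries with a mean per condition, so that all conditions share 1 estimate of the spread. The contrast was 24 h minus NSPs, and p-values were adjusted by the Benjamini-Hochberg method, with calls made under 0.05. The SE is the size of the log2 fold change divided by the square root of F. Genes with no count in a group are given as a bound against 3 counts per library, and those with few counts as a ratio of CPM with an exact 95% interval. Because reads were not tagged with molecular identifiers, intervals and bounds cover counting error only. The scripts were tested on simulated counts of 15200 genes. Of 107 genes changed by a log2 value of 1, 74 were found, and of 93 changed by 2, 91 were. Among unchanged genes 8 were called. A far smaller share of genes was changed there than was called here, so scaling was not tested at such a share. Promoter windows came from RefSeq, and 11888 genes tested had one. Python 3.11.15 with numpy 2.4.6, pandas 2.3.3, scipy 1.17.1 and matplotlib 3.10.9 made summaries and plots.

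The comparison, the 41 gene lists (779 genes) and the alternatives were chosen with earlier results of these data known. Named genes are list members, the 15 largest fold changes in each direction among genes called without overlap and with at least 5 CPM in the higher group, predicted genes left out, and the 5 largest CPM differences in each direction. Genes named within the lists were picked after their values were seen, and some genes that the rule names are not reported here. Alternatives were RLE factors, total counts, DESeq2 1.42.0, 3 other filters on low counts, a fit of the 6 libraries, the replicate number as a block, stricter thresholds and leaving out each of the 6 libraries compared. NSP replicate 1 alone as the NSPs was added after the data were seen.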

Additional observations from a re-analysis of the deposited data

How the results depend on the processing

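The count of genes called was 10603 with RLE factors, 10477 with total counts (5969 higher and 4508 lower), 10636 with DESeq2, 9662 in a fit of the 6 libraries, 7946 with at least 10 counts in each library and 7728 at an adjusted p under 0.01. With a log2 fold change of at least 1 it was 5774, of which 3776 were higher and 1998 lower. Leaving out 1 library gave 8875 to 10219 calls, with 4428 to 5315 higher and 4374 to 4904 lower. With NSP replicate 1 alone as the NSPs, chosen after the data were seen, 8277 genes were called (3676 higher and 4601 lower), and 7136 of the 10576 calls were kept. None of the 10576 calls was a call in the other direction under any of these settings. Of the values of named genes under all alternatives, 11539 stayed on the same side of the threshold, 621 were no longer past it and 275 came to be past it. Of the 11539, 237 values of 105 genes that were not called in either fit changed sign.

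Among genes called in at least 1 of the fits compared, 10 named genes changed sign, all with NSP replicate 1 alone, with log2 fold changes of 0.12 for Ccng2, 0.25 for Eif2s3y, -0.01 for Gclc, 1.02 for Gpr17, 0.15 for Kdm5d, -0.05 for Klf6, 0.30 for Pfkl, 0.90 for Thrsp, 0.15 for Ttyh1 and 0.63 for Uty. The cause was not tested. Some gene lists also moved by over 1.5 times in other fits. With at least 10 counts in each library, which tests fewer genes, 3 Notch, 5 oligodendrocyte lineage and 4 glycolysis genes fell (9, 8 and 7 as reported), and 5 ependymal genes rose (9 as reported). With no filter 17 cholesterol, 11 p53 and 8 hypoxia genes fell (11, 7 and 5 as reported). The p53 targets that rose were 2 or 3 in 8 other fits that kept every library, against 1 as reported.

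Deviations of samples with the same replicate number had correlations of 0.04, 0.11 and -0.069 between NSPs and 24 h. Those with unlike numbers had correlations of -0.11 to 0.0707. With 3 libraries per group and NSP replicate 1 apart from the others, these values cannot show whether the cultures were paired. With the replicate number as a block, 10407 genes were called over 18 libraries and 9418 over the 6, where 3 mitochondrially encoded genes rose and 1 fell.

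24 h replicates 1 and 3 had fewer counts than every NSP library. At 24 h 3 counts in a library amount to 0.213 CPM, and levels below that rest on fewer counts. None of the 12 libraries of other conditions, which enter the shared spread, was left out in turn.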
